A study of Mus musculus with 8 samples.

Results

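Dystroglycan and 8 proteins of its membrane complex were followed at the RNA level in mouse activated hepatic stellate cells (AHSC) and bone marrow-derived macrophages (BMDM). The 9 genes are Dag1, Dmd, Utrn, Sgcb, Sgcd, Sgce, Sspn, Dtna and Sntb2. They were taken by symbol from both expression tables, which together list 19382 genes, and all 9 are listed in each table. The set was chosen by the difference of Dag1 between the auranofin and the vehicle libraries of AHSC. Its values in AHSC are therefore a description without a test, while the other 8 genes in AHSC, and the genes measured in BMDM, did not enter that choice and were tested.

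All cells came from C57BL/6 mice. The AHSC were exposed for 12 h to 0.03 µM auranofin, a gold compound used against rheumatoid arthritis, or to vehicle. The labels call these controls untreated, and the time and the word vehicle come from the study's text. All BMDM received 100 ng/mL LPS and 1 mM ATP, with auranofin or without it for 1 h. The auranofin dose in BMDM is 0.1 µM by the labels and 0.3 µM by the study's text. Each of the 4 groups had 2 libraries. The labels do not say whether the libraries came from separate mice or cultures, so p-values measure the spread between these libraries, which may be technical.

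Dystroglycan is made as a single precursor and cleaved into an extracellular α subunit, whose sugar chains bind laminin and other matrix proteins, and a β subunit that spans the membrane. Inside the cell the β subunit binds dystrophin or its relative utrophin, which hold actin, and these carry the adaptor proteins dystrobrevin and syntrophin. The sarcoglycans and sarcospan lie beside it in the membrane. The complex is best known from muscle, where its loss weakens the link between the matrix and the cytoskeleton, but dystroglycan is also made by many cells that touch a basement membrane.

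The values are FPKM, in which the fragments of a gene are divided by its transcript length and by the library's total, so levels of different genes can be compared. Depth was estimated at 27500000 to 39400000 fragments a library from the steps of the lowest values. Testing by limma on log2(FPKM + 1) was limited to genes that averaged 1 FPKM or more in a table, which left 12149 of 18645 genes in AHSC and 9232 of 17408 in BMDM. All 9 members passed in AHSC, and Dag1, Utrn, Sgcb and Sntb2 passed in BMDM. The AHSC libraries also carried macrophage RNA. The 9 macrophage markers summed to between 7433 and 7717 FPKM in them, of which Lyz2 alone gave 5379 to 5554 FPKM. The 8 stellate markers summed to 2349 to 2842 FPKM, and the 4 listed hepatocyte markers to at most 1.73 FPKM. Such sums do not give the share of each cell type. In BMDM, auranofin replicate 1 stands apart from the other 3 libraries, so values there are given with and without it. In bulk samples, fewer cells of a type and less RNA per cell cannot be told apart.

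Dag1, the gene of dystroglycan, lies on the minus strand of chr9:108204861-108263977 in GRCm38 (mm10), and no other gene of the annotation overlaps it. The expression table joins 7 RefSeq transcripts under Dag1, against a median of 1 per tested gene in AHSC. Of the genes tested, 106 (0.873%) have 7 or more. The 7 match 4 GENCODE M21 transcripts of 4244 to 5662 nt. These share the exon at chr9:108218013-108218410 (398 nt) and differ in their first exons and in the length of the last exon, which runs from 3704 to 5028 nt. The table gives a single value for all of them, so a shift between transcripts could not be seen.

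The stretches upstream of Dag1 and Sgcb are shown because these were the most abundant members in vehicle AHSC and in vehicle BMDM, respectively. They are RefSeq sequence of GRCm38.p6, both from the minus strand, at chr9:108263978-108264208 for Dag1 and chr5:73647791-73647987 for Sgcb. Capitals mark a GC box, GGGCGG on either strand.
Dag1: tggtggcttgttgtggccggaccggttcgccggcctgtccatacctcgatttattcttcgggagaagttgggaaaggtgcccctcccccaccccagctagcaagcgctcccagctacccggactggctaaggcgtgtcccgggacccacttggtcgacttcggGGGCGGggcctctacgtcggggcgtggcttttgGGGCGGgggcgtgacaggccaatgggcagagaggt
Sgcb: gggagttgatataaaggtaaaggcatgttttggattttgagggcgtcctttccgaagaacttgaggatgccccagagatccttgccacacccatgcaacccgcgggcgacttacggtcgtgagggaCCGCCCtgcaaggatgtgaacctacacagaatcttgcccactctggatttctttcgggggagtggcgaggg
The Dag1 stretch holds 2 GC boxes and a CCAAT box and is 65.8% G and C. A GC box occurs in 30.0% of 32851 promoter windows cut to the same length, and CCAAT in 32.3%. The Sgcb stretch holds 1 GC box and a TATAAA, and is 54.8% G and C. For its length a GC box occurs in 24.1% of windows and TATAAA in 9.05%. All motifs were searched on both strands, and they do not overlap in either stretch. The core of the antioxidant response element, TGACNNNGC, has no match in the letters of these stretches, and occurs in 9.24% and 7.49% of windows of the same lengths. The whole RefSeq promoter entry of Sgcb, which runs past the stretch shown, holds 1 such match, and the 2 entries of Dag1 hold 0.

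In AHSC, the level of Dag1 was 66.4 and 70.6 FPKM under vehicle, against 17.4 and 15.4 FPKM under auranofin. Both auranofin libraries lay far below both vehicle libraries, and the replicates of a group were 1.06-fold and 1.13-fold apart. The mean went from 68.5 ± 2.99 to 16.4 ± 1.46 FPKM (SD, n = 2), which is 24.0% of the vehicle level and 4.17-fold lower. On the log2(FPKM + 1) scale the difference was −1.999, with −1.91 and −2.08 in the single auranofin libraries. At the shortest transcript length, these levels stand for about 8846 and 9889 fragments with vehicle and 2206 and 2571 with auranofin, so few counts are not a limit here. With vehicle, Dag1 was above 91.7% of the genes tested, and with auranofin above 63.4%.

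**Figure D1:**
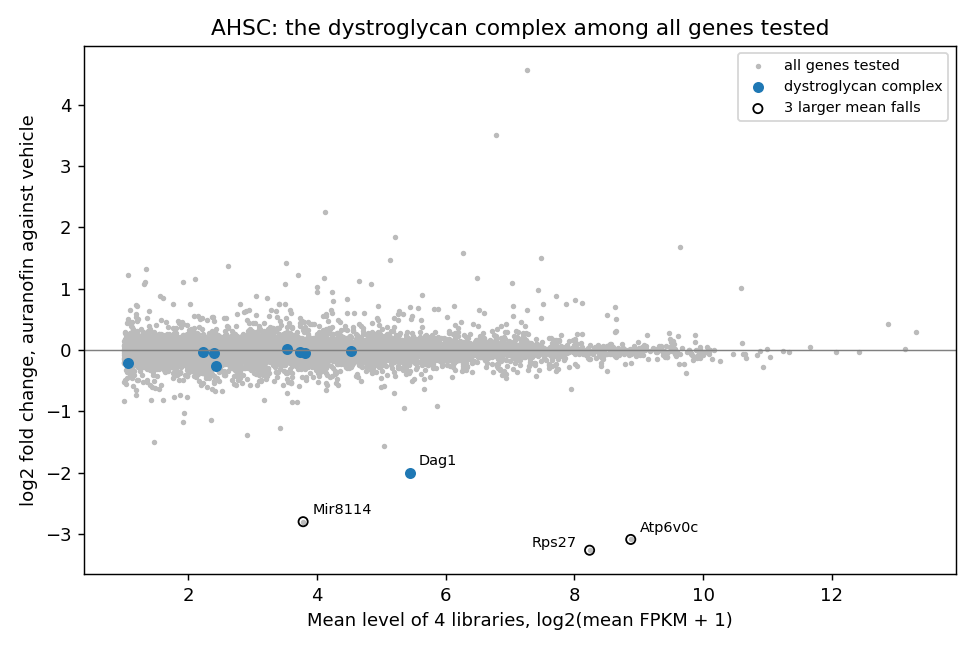
Log2 fold change of auranofin against vehicle in AHSC (y axis) against the mean level of the 4 libraries as log2(mean FPKM + 1) (x axis) for the 12149 genes tested, with the 9 members in blue and the 3 genes with a larger mean fall circled. On the log2(FPKM + 1) scale, Dag1 stands at −1.999, and the other 8 members lie between −0.27 and 0.018.

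Of all genes tested in AHSC, 3 had a lower mean log2 difference than Dag1, and each rests on a single library. Rps27, a ribosomal protein gene, stood at 417 and 376 FPKM under vehicle, against 3.20 and 405 FPKM under auranofin. Atp6v0c, a subunit of the vacuolar proton pump, stood at 613 and 641 FPKM under vehicle, against 611 and 7.91 FPKM under auranofin. Mir8114 was at 51.0 FPKM in vehicle replicate 2 and at 0.0583 FPKM or less in the other 3 libraries. Of the 4 genes, Dag1 is the one whose replicates stood together in both groups. The Dag1 values are those that chose the set, so this is a description and no support for its fall.

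RNA of the proteins that dystroglycan binds inside the cell differed less than Dag1 RNA in AHSC. Dag1 was chosen for its large fall, so this contrast follows from the choice. Dmd, which codes for dystrophin and lies on chrX:82814664-85205050, was at 5.07 and 4.74 FPKM under vehicle, against 3.88 and 3.93 FPKM under auranofin. The groups did not overlap, with both auranofin libraries lower. The log2 difference was −0.27 ± 0.059 (SE; 95% interval −0.41 to −0.12), with an adjusted p of 0.0893 by limma (Benjamini-Hochberg over the whole table). Utrn, the gene of utrophin on chr10:12382187-12869888, was at 12.7 and 12.3 FPKM under vehicle, against 11.96 and 12.4 FPKM under auranofin. These ranges overlapped, and the log2 difference was −0.039 ± 0.045. The ratio of Utrn to Dmd was 2.51 and 2.60 in the vehicle libraries and 3.08 and 3.15 in the auranofin libraries. By FPKM, Utrn was thus higher than Dmd in all 4 AHSC libraries. The matched Dmd transcripts run from 1858 to 14910 nt, and which of them gave the Dmd value cannot be seen.

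The sarcoglycans form a membrane subcomplex beside dystroglycan. Sgcb (chr5:73632749-73647737), the β subunit, was at 11.2 and 9.89 FPKM under vehicle, against 10.6 and 10.7 FPKM under auranofin. Both auranofin values lay between the vehicle values, and the log2 difference was 0.018 with a 95% interval of −0.14 to 0.18. Sgce (chr6:4674350-4747204), the ε subunit, which many tissues outside muscle make, was at 22.8 and 21.8 FPKM under vehicle, against 22.0 and 21.8 FPKM under auranofin. Its groups overlapped too, with a log2 difference of −0.022 ± 0.041. Sgcd (chr11:46971077-47989451), the δ subunit, was the lowest member, at 1.27 and 1.23 FPKM under vehicle, against 1.01 and 0.876 FPKM under auranofin. Its groups did not overlap, at about 65 and 66 fragments with vehicle and 48 and 56 with auranofin. The log2 difference of Sgcd was −0.22 ± 0.084 (95% interval −0.42 to −0.0070), with an adjusted p of 0.269 by limma with Benjamini-Hochberg adjustment. Its means were 1.25 FPKM for vehicle and 0.941 FPKM for auranofin, so it passed the filter of 1 FPKM only through its vehicle level.

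The remaining members are sarcospan, a small protein that crosses the membrane several times, and 2 adaptors. Sspn (chr6:145931873-145965225) was at 4.29 and 4.40 FPKM under vehicle, against 4.18 and 4.16 FPKM under auranofin. Dtna, the gene of α-dystrobrevin, was at 3.62 and 3.89 FPKM under vehicle, against 3.76 and 3.56 FPKM under auranofin. Sntb2 (chr8:106935740-107014232), the gene of β2-syntrophin, whose PDZ domain binds channels and signalling proteins, was at 13.1 and 13.5 FPKM under vehicle, against 12.7 and 12.8 FPKM under auranofin. The auranofin libraries were both lower for Sspn and Sntb2, by little, and overlapped with vehicle for Dtna. The log2 differences were −0.048, −0.030 and −0.057 for Sspn, Dtna and Sntb2, and the adjusted p ran from 0.533 to 0.856 by limma with Benjamini-Hochberg adjustment. Dtna is counted from 8 transcripts and Dmd from 6, of very different lengths, so their FPKM depend on how fragments were shared among transcripts. Other annotated genes overlap 4 members, with 7 at Dmd, 2 at Utrn, 2 at Sgcd and 1 at Sntb2, and whether strand was used to assign fragments is not given in the sources used here.

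Of the 8 members other than Dag1, 0 had an adjusted p under 0.05 by limma in AHSC, where 2.33% of all genes tested did. At an unadjusted p under 0.05 there were 2 of the 8, Dmd and Sgcd, against 17.8% of all genes. In 4 of the 8 members, Sgcd among them, both auranofin libraries were below both vehicle libraries, against 23.9% of all genes tested. Sgcd passed the filter only through its vehicle level, so it adds no support to either count. The median log2 difference of the 8 members was −0.043, against 0.0049 for all genes. The 95% intervals of the 8 together ran from −0.42 to 0.18. With a pseudocount of 0.1 in place of 1, the log2 differences of Sgcd and Dmd were −0.38 and −0.32. Again 0 of the 8 had an adjusted p under 0.05 by limma. No member differed by 1.5-fold or more within an AHSC group, which 1.49% of the genes tested did.

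**Figure D2:**
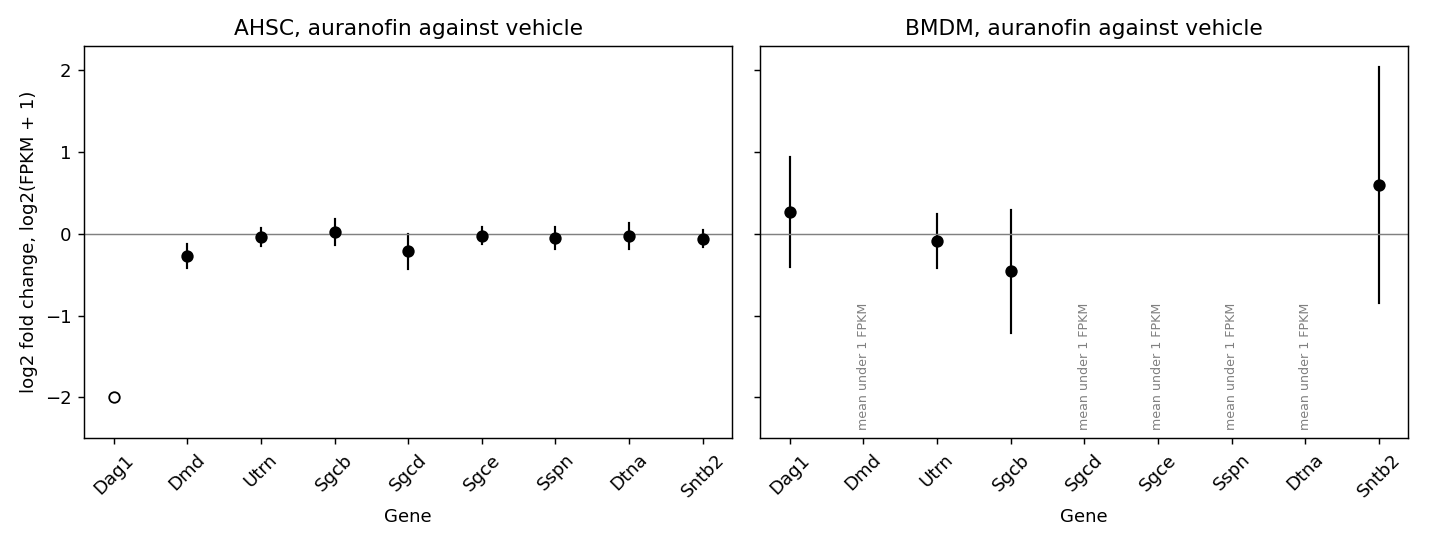
Log2 fold change of auranofin against vehicle on the log2(FPKM + 1) scale (y axis) for each member (x axis) in AHSC (left) and BMDM (right). Points are limma estimates and bars their 95% intervals, the open circle is Dag1 in AHSC, shown with no interval because it was the reason for the choice, and 5 members with a mean under 1 FPKM in BMDM have no estimate; in BMDM each of the 4 intervals includes 0.

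The order of the members by level in AHSC is a description. With vehicle, Dag1 was highest and gave 48.4% of the summed FPKM of the 9 genes. It was followed by Sgce at 22.3, Sntb2 at 13.3, Utrn at 12.5, Sgcb at 10.5, Dmd at 4.91, Sspn at 4.34, Dtna at 3.76 and Sgcd at 1.25 FPKM. The ranges of neighbours in this order did not overlap, though Sntb2 and Utrn were close. With auranofin, Sgce was first at 21.9 FPKM and Dag1 second at 16.4 FPKM, and Sspn stood above Dmd. The ratio of Dag1 to Sgce was 2.91 and 3.24 in the vehicle libraries and 0.792 and 0.705 in the auranofin libraries, so the order of the pair was reversed.

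**Figure D3:**
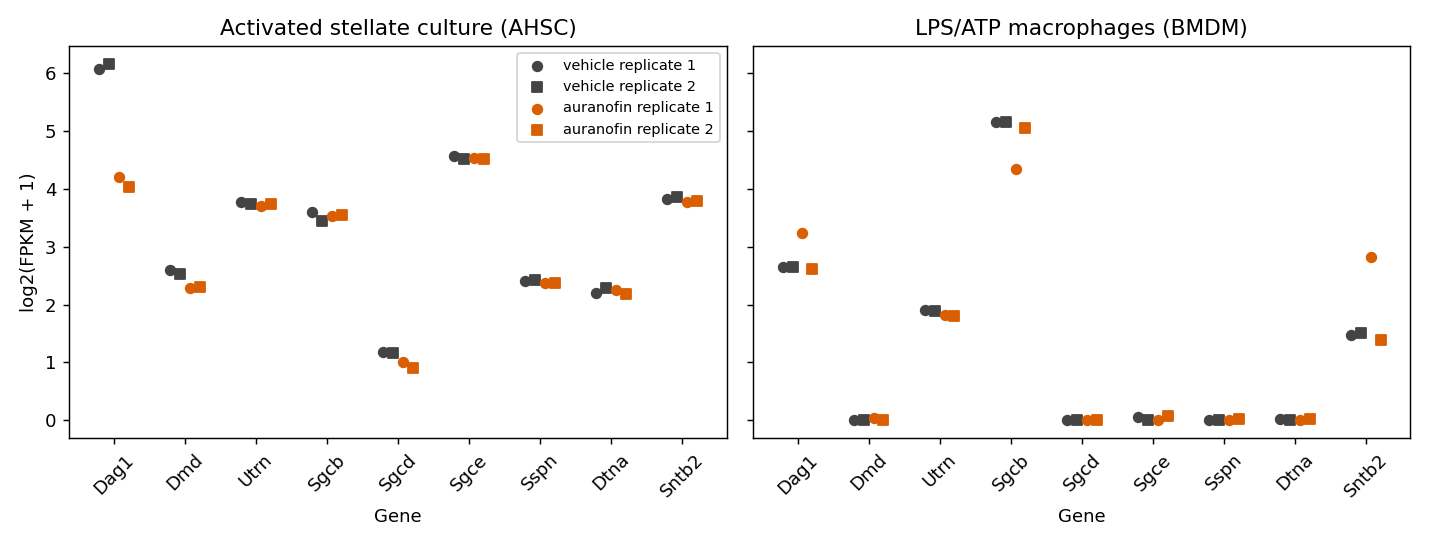
Level of each of the 9 members (x axis) as log2(FPKM + 1) (y axis), with 1 point for each library, vehicle in grey and auranofin in orange, and the AHSC and BMDM tables in separate panels. Dag1 drops from the first to the second place in AHSC under auranofin, while Sgcb is highest in all BMDM libraries and 5 members lie at or near 0 there.

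Smooth muscle and contractile markers moved along with the treatment in AHSC, and their part in the values of Dmd and Sgcd was not tested. The 3 smooth muscle markers Myh11, Cnn1 and Smtn all fell, and their summed level was 161 FPKM in both vehicle libraries and 121 to 128 FPKM under auranofin. The log2 differences were −0.42, −0.36 and −0.35, with adjusted p of 0.0116, 0.0361 and 0.0221 by limma with Benjamini-Hochberg adjustment. The 8 stellate markers summed to 2706 to 2842 FPKM under vehicle, against 2349 to 2431 FPKM under auranofin, and 1 of them passed the test, Acta2, at −0.38 with an adjusted p of 0.00719 by limma. The mesothelial sum was 142 to 170 FPKM under vehicle, against 122 to 128 FPKM under auranofin. All 3 mesothelial markers were lower, and 1 of them, Msln, passed the test (−0.41, adjusted p 0.0434 by limma). Most of the mesothelial sum was Upk3b, at 132 and 160 FPKM under vehicle, with an adjusted p of 0.162 by limma. Krt19 is in both the mesothelial and the cholangiocyte list. Macrophage markers summed to 7589 to 7717 FPKM and 7433 to 7466 FPKM, and 1 of 9, Clec4f, rose (0.27, adjusted p 0.0395 by limma). Endothelial markers summed to 164 to 170 FPKM and 167 to 178 FPKM, and 1 of 6, Stab2, fell (−0.37, adjusted p 0.0169 by limma), while Cdh5 and Kdr had positive differences of 0.14 and 0.17 that did not pass. Cholangiocyte markers summed to 12.4 to 12.8 FPKM and 10.3 to 10.8 FPKM, and 0 of the 2 tested passed. Krt7 was at −0.35 and Krt19 at −0.17 (adjusted p 0.0840 and 0.177 by limma, both under 0.05 unadjusted). The unadjusted p was also under 0.05 for all 3 mesothelial markers and 4 of the 8 stellate markers, all lower. Another 2 stellate markers had positive differences. The same held for 2 of 9 macrophage markers, 1 each way, and 3 of 6 endothelial markers, 2 of them higher. Over all genes tested, 2.33% had an adjusted p under 0.05 by limma and 17.8% an unadjusted one.

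In BMDM, RNA of fewer members was measured. Sgcb was the most abundant, at 34.7 and 34.8 FPKM with vehicle, which was 77.9% of the members' summed level. Dag1 followed at 5.31 and 5.29 FPKM, above 39.1% of the genes tested in that table. Utrn at 2.76 and 2.72 FPKM and Sntb2 at 1.79 and 1.86 FPKM came next. Sgcd was listed at 0 in all 4 BMDM libraries, and Dmd, Sgce, Sspn and Dtna did not exceed 0.0518 FPKM in any. With vehicle, neighbours among the first 4 did not overlap. With auranofin, the ranges of Dag1 and Sntb2 overlapped, as did those of Sntb2 and Utrn. The 2 tables were normalized separately, and the cells differ in origin and treatment, so the levels of AHSC and BMDM stand side by side without a test.

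With auranofin, Dag1 in BMDM was at 8.37 and 5.13 FPKM. Replicate 1 lay above both vehicle libraries and replicate 2 slightly below them. The log2 difference was 0.27 ± 0.24 (95% interval −0.40 to 0.94), with an adjusted p of 0.721 by limma with Benjamini-Hochberg adjustment. Sntb2 had the same pattern with a wider gap, at 6.03 FPKM in replicate 1 and 1.61 FPKM in replicate 2. Its log2 difference was 0.60 ± 0.52, also with an adjusted p of 0.721 by limma.

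Sgcb in BMDM was at 19.4 and 32.2 FPKM under auranofin. Both libraries were below both vehicle libraries, replicate 2 by little. The log2 difference was −0.46 ± 0.27 (95% interval −1.21 to 0.29), with an adjusted p of 0.721 by limma with Benjamini-Hochberg adjustment. Utrn was at 2.54 and 2.51 FPKM under auranofin, both slightly under the vehicle values, with a log2 difference of −0.086. By limma, 0 of the 4 members tested in BMDM had an adjusted p under 0.05 and 0 an unadjusted p under 0.05, against 0.0108% and 0.531% of all genes tested. The groups did not overlap, with auranofin lower, for 2 of the 4 members, against 12.6% of all genes.

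Auranofin replicate 1 stands apart from the other BMDM libraries, and the size of the members' differences rests on it. It differed by at least 1.5-fold from each of the other 3 in 2130 to 2182 genes, while those 3 differed from each other in 66 to 90 genes. Dag1, Sgcb and Sntb2 were among the 2168 genes (23.5%) that differed by at least 1.5-fold within a BMDM group. Without that library the log2 differences were −0.038 for Dag1, −0.11 for Sgcb and −0.11 for Sntb2, with 0 members past the adjusted threshold by limma. Without auranofin replicate 2 they were 0.57, −0.81 and 1.32, and all 3 passed, as did 5997 genes in all. In such fits the single auranofin library is assumed to vary as the vehicle libraries do.

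**Figure D4:**
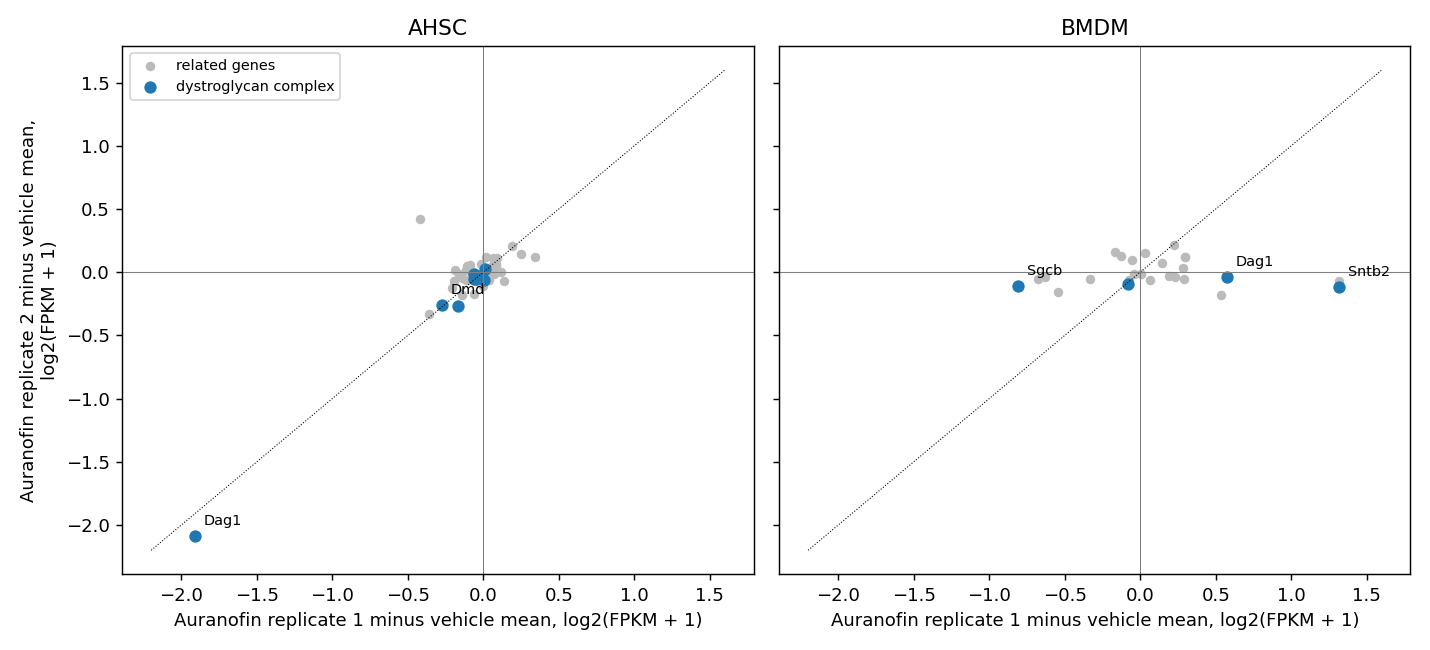
Difference from the vehicle mean in auranofin replicate 1 (x axis) and auranofin replicate 2 (y axis), both on the log2(FPKM + 1) scale, with AHSC on the left, BMDM on the right, members in blue and tested genes of the related lists in grey; the dotted line marks equal values. The AHSC members lie near the line, with Dag1 at −1.91 and −2.08, while Dag1, Sgcb and Sntb2 in BMDM lie away from 0 in replicate 1 and near it in replicate 2.

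The genes that work with dystroglycan were described by role, from lists of ligands, sugar-adding enzymes, partners, proteases and other matrix receptors. Among the matrix ligands, 7 of 12 were tested in AHSC, and all 7 had a negative log2 difference, with a median of −0.096 against 0.0049 for all genes. Auranofin replicate 1 alone gave a median of −0.19, and replicate 2 gave −0.049. Among them 1, Slit2, passed the test as lower, which 1.09% of all genes did. Slit2, a secreted guidance protein whose C-terminal part binds α-dystroglycan, was at 9.14 and 9.08 FPKM under vehicle, against 6.89 and 7.05 FPKM under auranofin. It fell by 0.34 on the log2 scale (SE 0.046, adjusted p = 0.0269 by limma with Benjamini-Hochberg adjustment). Its adjusted p by limma ran from 0.0216 to 0.281 over the alternatives, and was 0.0519 with the replicate number as a block and 0.0920 and 0.0597 without auranofin replicate 1 or 2.

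The sugar chains of α-dystroglycan are built by a long series of enzymes, with 18 genes in the list. Of these, 17 were tested in AHSC, 0 had an adjusted p under 0.05 by limma and 2 an unadjusted p under 0.05, both higher, against 2.33% and 17.8% of all genes tested. Their median log2 difference was 0.012. The most abundant over the 4 libraries were Dpm2, part of the enzyme that makes dolichol phosphate mannose, with means of 39.6 and 40.6 FPKM, and Tmem5, a xylosyltransferase of the laminin-binding chain, with means of 29.2 and 28.9 FPKM, each for vehicle and auranofin. Among the other subunits, 2 of 8 were tested and 0 passed at either threshold by limma, against the same 2.33% and 17.8% of all genes. Dtnb, the gene of β-dystrobrevin, had means of 5.90 and 6.18 FPKM.

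Of the 8 intracellular partners, 6 were tested and 0 passed at the adjusted or unadjusted threshold by limma, against 2.33% and 17.8% of all genes. Grb2, an adaptor of receptor signalling, had means of 61.2 and 63.8 FPKM, and Dgkz, a diacylglycerol kinase, of 47.2 and 48.0 FPKM. All 4 proteases that can cut dystroglycan were tested, with 0 past the adjusted and 1 past the unadjusted threshold, which 2.33% and 17.8% of all genes passed. Mmp2, a gelatinase, had means of 40.6 and 42.6 FPKM and Furin, a proprotein convertase, of 39.1 and 41.2 FPKM. Of the 6 other matrix receptors, 4 were tested, with 0 past the adjusted and 1 past the unadjusted threshold, against the same 2.33% and 17.8%. Itgb1, the β1 integrin shared by many matrix receptors, had means of 344 and 339 FPKM, and Bcam, a laminin α5 receptor, of 28.7 and 26.4 FPKM. In BMDM, 22 genes of these 6 lists were tested and 0 had an adjusted p under 0.05 by limma, nor an unadjusted p under 0.05. Over all genes tested in BMDM, 0.0108% and 0.531% did, so the count of 0 says little about these genes.

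The genes next to Dag1 on chromosome 9 were read as well. Within 100 kb of its ends the RefSeq annotation has 10 other genes, of which 8 are listed in the AHSC table and 6 were tested. By limma, 0 of the 6 had an adjusted p under 0.05 and 0 an unadjusted one, against 2.33% and 17.8% of all genes. The adjusted p of the 6 ran from 0.591 to 0.983 by limma. Rhoa, a small GTPase of the cytoskeleton, was the most abundant, at 185 and 176 FPKM under vehicle, against 190 and 181 FPKM under auranofin. Nicn1, the nearest of the tested genes, was at 11.98 and 11.9 FPKM under vehicle, against 12.2 and 11.7 FPKM under auranofin. Gpx1, a glutathione peroxidase, was at 39.6 and 38.5 FPKM under vehicle, against 31.8 and 121 FPKM under auranofin, so its replicates disagreed. In BMDM, Gpx1 was at 133 and 124 FPKM under vehicle, against 42.1 and 32.6 FPKM under auranofin, where replicates stood together. The log2 difference was −1.77 (SE 0.17), with an unadjusted p of 0.000441 and an adjusted p of 0.721 by limma. Of all genes tested in BMDM, 0.0108% had an adjusted p under 0.05 and 0.531% an unadjusted one.

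The genes whose pattern was nearest to Dag1 over the 8 libraries were found by the Euclidean distance of log2(FPKM + 1), centred on the gene's mean within each table, among 8963 genes expressed in both tables. Dag1's own distance from a flat pattern was 2.07. Elf2, an ETS family transcription factor, was nearest at a distance of 1.27. It was at 10.9 and 10.2 FPKM under vehicle, against 5.58 and 5.49 FPKM under auranofin in AHSC, and at 2.26 and 3.44 FPKM under vehicle, against 5.83 and 3.75 FPKM under auranofin in BMDM. Thbs1, a matricellular protein, followed at 1.38, with 307 and 290 FPKM against 197 and 187 FPKM in AHSC. In BMDM, Thbs1 was at 39.2 and 38.3 FPKM under vehicle, against 51.5 and 35.5 FPKM under auranofin. The readthrough gene Clk2-scamp3 was next, at 1.502, with 8.80 and 11.1 FPKM against 3.19 and 3.15 FPKM in AHSC. In BMDM, Clk2-scamp3 was at 4.25 and 0.693 FPKM under vehicle, where its replicates disagreed, against 6.22 and 3.83 FPKM under auranofin. The 8 points share libraries in which Dag1 itself was selected, so the distances are a description.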

How the data were processed

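RNA of 4 AHSC and 4 BMDM libraries was prepared with a TruSeq Stranded mRNA kit, per the labels. The authors deposited FPKM values, 1 per gene and library, in 1 table per cell type on mm10. The submitters' processing notes name CASAVA, FastQC 0.11.7, Trimmomatic 0.38, HISAT2 2.1.0 and StringTie 1.3.4d. No counts are given, so no count test was run. FPKM values summed to 430372 to 485467 a library. Multi-transcript genes depend on how fragments were assigned.

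The members, lists and tests were chosen with earlier results of these data known. Genes named from the lists are those that passed a threshold, or otherwise the 2 most abundant in AHSC, and some genes of these lists are not reported here. The 3 genes nearest to Dag1 in pattern and its neighbours within 100 kb were named too, the latter by level and distance. Each table was fitted alone with limma 3.58.1 (R 4.3.3; lmFit, then eBayes with trend) on log2(FPKM + 1), for genes that averaged 1 FPKM or more, with Benjamini-Hochberg adjustment over all genes tested. The log scale understates changes of low genes. With 2 libraries a group, the smallest p of an exact permutation test is 0.333. In simulated data with normal noise, 200 genes that averaged at least 5 FPKM were changed 2-fold. At an adjusted p under 0.05, limma called 189 of them in AHSC and 0 in BMDM, with 4 and 0 false calls. Smaller changes and changes in lower genes were not simulated, so this does not give the power for most members. Depth came from the steps of values under 0.2 FPKM in genes with 1 transcript, and covers counting error only. Gene identifiers matched the GRCm38.p6 gene table for 18601 of 18645 and 17371 of 17408 genes, and 6 of 9 members had a promoter entry. Alternatives changed the pseudocount, the low-value filter, the scaling, the variance model, the replicate block, or left out a library.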

Additional observations from a re-analysis of the deposited data

Results flagged for a closer look

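Sgcb was marked for a closer look because its log2 difference between auranofin and vehicle had opposite signs in the cell types, in both auranofin libraries of each. It was 0.018 in AHSC and −0.46 in BMDM, relative to the mean of the vehicle libraries. Whether the cell types differ was not tested, because the tables were normalized separately and dose and time differ. Neither value passed the threshold by limma, and the AHSC value lies within the range of its vehicle libraries.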

How the results depend on the processing

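In AHSC, the log2 difference of Dag1 ran from −2.08 to −1.91 with a library left out. Dag1 was chosen by these values, so the range is a description and no support for its fall. The other members gave 0 calls in every alternative that kept all libraries. Of them, Dmd, Sgcd, Sspn and Dtna were not tested with a minimum mean of 5 FPKM. The 283 genes called in AHSC became 49 with no filter, 129 without the trend and 0 without moderation, and 177 to 493 with a library left out. The 1 related gene called, Slit2, became 0 with no filter, without moderation and with the replicate block, and 0 to 1 with a library left out. The 1 gene called in BMDM became 0 with no filter, with quantile normalization and without moderation, 2 without the trend, and 1 to 5997 with a library left out. There the members called ran from 0 to 3, the related genes called from 0 to 10, and Dag1 from −0.038 to 0.57. With a library left out, signs reversed for Sgcb in AHSC (−0.064 to 0.099, negative without vehicle replicate 2), Sgce in AHSC (−0.053 to 0.0089, positive without vehicle replicate 1) and Dtna in AHSC (−0.071 to 0.012, positive without vehicle replicate 2, and 0.0023 without auranofin replicate 2). They also reversed for Dag1 and Sntb2 in BMDM without auranofin replicate 1, Sntb2 running from −0.11 to 1.32. Rescaled to a common total, the mean levels of Dag1 were 159 and 37.6 in AHSC and 11.3 and 13.97 in BMDM, for vehicle and auranofin. The cause of these shifts was not tested, beyond the fewer libraries or other scale.

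Replicate numbers are shared by the groups, but nothing says that they pair the libraries. The deviations of same-numbered libraries correlated at 0.11 in AHSC and −0.055 in BMDM over genes. With the replicate number as a block, 282 genes were called in AHSC and 1 in BMDM, with 0 of the 8 other members in AHSC and 0 of the 4 members tested in BMDM. Depth limits Sgcd, at 48 to 66 fragments a library.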

Other observations

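Among the sugar-adding enzymes and other matrix receptors, 3 genes had an unadjusted p under 0.05 in AHSC without passing the adjustment, all with higher values under auranofin. Over all genes tested, 17.8% had an unadjusted p under 0.05, beside 2 of the 17 enzymes and 1 of the 4 receptors tested. They were named after their values were seen. Itga6, an α subunit of laminin-binding integrins, had means of 8.13 FPKM for vehicle and 9.49 FPKM for auranofin, a log2 difference of 0.20 (adjusted p = 0.0962 by limma with Benjamini-Hochberg adjustment). Dpm1, the catalytic subunit of dolichol phosphate mannose synthase, had means of 7.001 and 8.18 FPKM. Pomgnt2, which extends the O-mannose chain on α-dystroglycan, had means of 4.48 and 5.43 FPKM. The adjusted p of Dpm1 and Pomgnt2 was 0.209 and 0.245 by limma.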
